A study of Canis lupus familiaris with 24 samples.

Results

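This account concerns 1 contrast in Madin-Darby canine kidney (MDCK) cells, which were derived from dog kidney epithelium: how the response to TGFb differed between the sublines MDCK-NBL2 and MDCK-II. The members are the 12 RNA-seq libraries, of 24 in the series, that hold both lines at day 4, untreated or treated with TGFb, with 3 libraries in each of the 4 groups. The labels call the untreated cells of both lines epithelial, treated MDCK-II cells partial EMT and treated MDCK-NBL2 cells full EMT, where EMT is epithelial-mesenchymal transition. The other 12 libraries hold both lines untreated at day 0 and TGFb-treated MDCK-NBL2 cells given siRNA, either a control (siCTR) or one that targets PRRX1 (siPRRX1); they entered the fit to share its estimate of spread. No source used here says whether the replicates are separate cultures, so the spread behind each p-value is that of the libraries and may be technical. Each group comes from 1 cell line, so a difference between the lines stands for these lines alone.

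TGFb binds a pair of receptor kinases, TGFBR2 and TGFBR1, which phosphorylate SMAD2 and SMAD3; these enter the nucleus with SMAD4 and change transcription together with factors the cell already holds. In epithelial cells the cytokine halts proliferation, lowers junction genes and raises matrix, integrin and contractile genes, in part through the transcription factors SNAI1, SNAI2, ZEB1, ZEB2 and PRRX1. Wnt and BMP signals interact with this pathway in kidney epithelium.

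Each gene's difference is its log2 change with TGFb in MDCK-NBL2 minus its log2 change in MDCK-II, tested as an interaction with edgeR's quasi-likelihood test, and "called" means a Benjamini-Hochberg adjusted p below 0.05. Levels are counts per 1000000 counts of the library (CPM, with TMM-scaled totals), and compare 1 gene between libraries, not different genes. The main fit leaves out untreated MDCK-NBL2 replicate 2, a choice made from the measured values of that library. Its first principal component score over the 12 libraries was 74.2, between 17.5 and 7.8 for the other untreated MDCK-NBL2 libraries and 96.3 to 109 for the treated ones. Among genes called in MDCK-NBL2 with at least a 2-fold change and 10 CPM in 1 of the 4 groups, it lay, for the median gene, 53.1% of the way from the other untreated to the treated libraries among 1184 rises, and 78.6% among 1156 falls. These genes were chosen in the fit without that library, which can by itself place it between the groups, so the shares are a description. The remaining untreated MDCK-NBL2 group has 2 libraries. Total counts ran from 6134929 to 27567296 per library, and the 3 treated MDCK-NBL2 libraries were among the shallow ones, at 6134929 to 9413761. The shallowest, treated MDCK-NBL2 replicate 1, is the only one of the 12 whose library number is of another series. The 7 kidney epithelial identity markers in the table summed to between 3046 and 7478 CPM, with CDH16, the kidney-specific cadherin, at 0 in treated MDCK-NBL2. The 9 leukocyte markers summed to 1.49 to 5.54 CPM and the 10 fibroblast markers to 0.809 to 48.3 CPM. The 9 endothelial markers summed to 91.9 to 153 CPM in untreated and 317 to 405 CPM in treated MDCK-II, and to 106 to 209 CPM and 351 to 426 CPM in MDCK-NBL2. Most of each sum was FLT1 alone, at 88.4 to 149 and 312 to 395 CPM in MDCK-II and 102.6 to 204.5 and 345.6 to 423.5 CPM in MDCK-NBL2. No other marker of the 9 stood above 8.625 CPM, and their part in the results was not tested. In bulk libraries, a change in the share of cells and a change in RNA per cell cannot be told apart.

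The response to TGFb differed between the lines for 2653 of 12574 genes tested (21.1%). In 1248 (9.93%) the change was higher in MDCK-NBL2 and in 1405 (11.2%) it was lower. TGFb changed 6890 genes in MDCK-NBL2 (54.8% of those tested; 27.1% up and 27.7% down) and 3862 in MDCK-II (30.7%; 16.1% up and 14.6% down). The largest class was made up of 1413 genes (11.2% of all tested) called in MDCK-NBL2 and not in MDCK-II, 714 of them up and 699 down. MDCK-II alone was called for 183 genes (1.46%), 110 up and 73 down. In 67 genes (0.533%) both lines were called in opposite directions, 29 up and 38 down in MDCK-NBL2. A further 957 genes (7.61%) moved the same way in both lines, 920 of them further in MDCK-NBL2, and 33 were called in neither line alone.

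Opposite responses were rare among shared ones: of 3034 genes called in both lines, 2967 (97.8%) moved in the same direction. A gene that misses the threshold in 1 line may still have moved there, so the interval of its change was read as well. For 1195 of the 1413 genes called in MDCK-NBL2 alone (84.6%), the 95% interval of the MDCK-II change lay within 2-fold either way. For 135 of the 183 genes called in MDCK-II alone (73.8%), the same held of MDCK-NBL2. With untreated MDCK-NBL2 replicate 2 put back, 711 of 12466 genes (5.7%) had a called difference, and 701 of these were also called without it. The classes then held 448 genes for MDCK-NBL2 alone, 150 for MDCK-II alone, 46 opposite and 57 in the same direction. Of the main classes, in the same order, 388 of 1413 genes (27.5%), 117 of 183 (63.9%), 37 of 67 (55.2%) and 56 of 957 (5.85%) kept their class. The smaller classes also moved with other single libraries: the opposite class held 107 genes without untreated MDCK-II replicate 1, 129 without untreated MDCK-NBL2 replicate 3, and 41 without treated MDCK-II replicate 2, and without the last library MDCK-II alone held 114 genes and the same-direction class 603. A fit of the 4 groups alone, without the spread of the other libraries, called 1152 differences, with 676 genes for MDCK-NBL2 alone, and kept 98 of the 136 named genes that were called. The genes described below that it did not call were NR4A1, FBLN2, PDGFRA, DENND5B, INPP5A, SNAI1, SNAI2, BMP2, TGFBR1, TGFBR2, SMAD3, SMAD7, FZD5, ALDH1L2, MAGI1, MX2, XPNPEP3, PFKFB2, FGFBP1 and SLC6A12 (adjusted p from 0.0525 to 0.117).

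**Figure D1:**
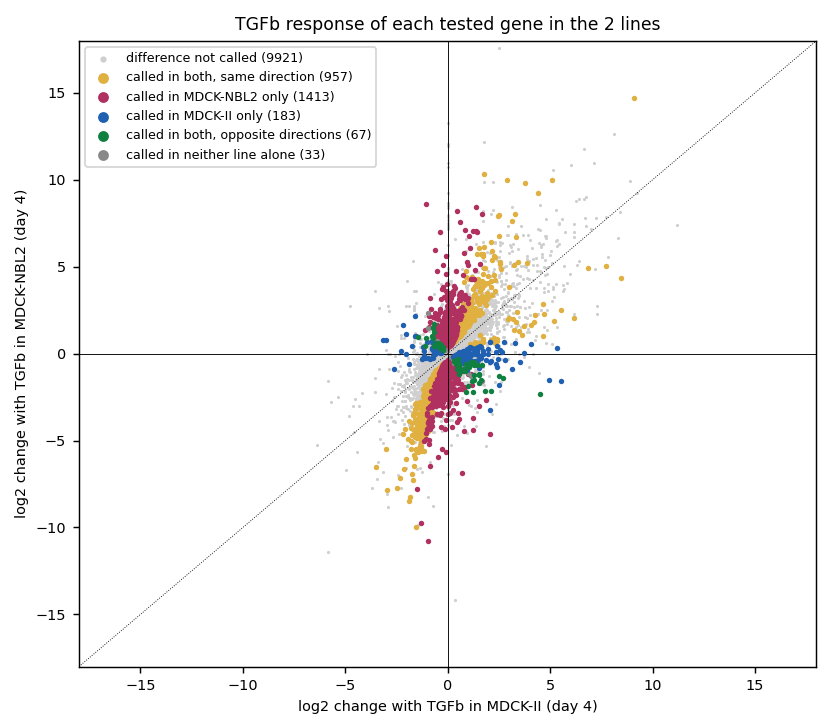
Each point is a tested gene, with its log2 change with TGFb in MDCK-II on the horizontal axis and in MDCK-NBL2 on the vertical axis, coloured by class; the dotted line marks equal change. The 1413 genes called in MDCK-NBL2 alone spread along the vertical axis and the 183 called in MDCK-II alone along the horizontal one; changes of genes at or near 0 in a group depend on the prior count.

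**Figure D2:**
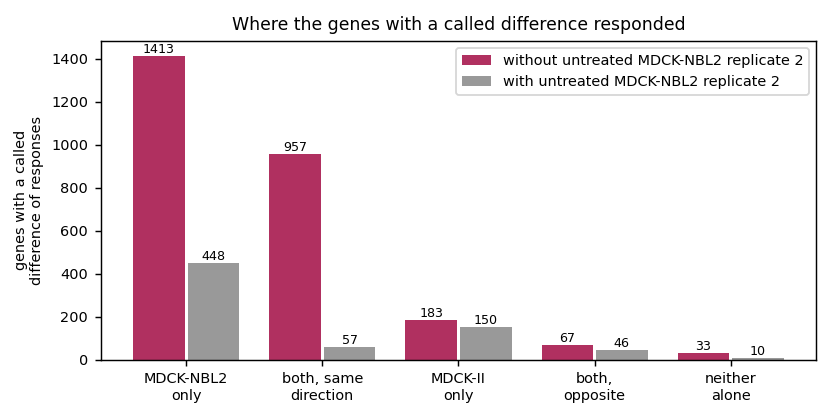
Bars give the number of genes in each class of called difference, without (red) and with (grey) untreated MDCK-NBL2 replicate 2. The same-direction class fell from 957 to 57 genes with that library, and the opposite class from 67 to 46.

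The levels of the untreated lines were compared with the treated level of the line that responded. Among the 110 genes that rose in MDCK-II alone, untreated MDCK-NBL2 cells already stood at or above the treated MDCK-II level for 44 (40%), against 378 of all 2022 genes that rose in MDCK-II (18.7%). Among the 73 that fell in MDCK-II alone, untreated MDCK-NBL2 stood at or below the treated MDCK-II level for 33 (45.2%), against 257 of 1840 (14%). In the reverse case, untreated MDCK-II stood at or above the treated MDCK-NBL2 level for 111 of the 714 genes that rose in MDCK-NBL2 alone (15.5%), against 304 of 3409 (8.92%). For the 699 that fell in MDCK-NBL2 alone, untreated MDCK-II stood at or below the treated MDCK-NBL2 level for 84 (12%), near the 351 of all 3481 genes that fell there (10.1%). These shares use the same untreated and treated levels that define the classes and are a description.

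The siCTR and day 0 libraries of MDCK-NBL2 entered the class calls through the shared estimate of spread, the choice of genes tested and the scaling, and not through the contrasts. Their difference combines TGFb, 4 days in culture, siRNA transfection and, in part, the series of the library number. Most of these siCTR libraries, and none of these day 0 libraries, have numbers of the same series as treated MDCK-NBL2 replicate 1. The part of the series was not tested in this difference between siCTR and day 0. Of the 714 genes that rose in MDCK-NBL2 alone, 635 were also called up there (88.9%) and 0 down, where 31.9% of all tested genes and 84.2% of all 3409 genes that rose in MDCK-NBL2 were called up. Of the 699 that fell, 564 were called down (80.7%) and 2 up, where 27.4% of all tested genes and 75.8% of all 3481 that fell in MDCK-NBL2 were called down. In the same-direction class the shares were 98.5% of rises and 99.4% of falls. Opposite genes that rose in MDCK-NBL2 were called up in 22 of 29 and down in 0, and those that fell were called down in 19 of 38 and up in 1. Genes that changed in MDCK-II alone were called in both directions in these MDCK-NBL2 libraries. Of 110 that rose in MDCK-II, 31 were called up (28.2%) and 17 down (15.5%). The 73 that fell in MDCK-II were more often called up, 27 of them (37%), than down, 6 (8.22%). Of all tested genes, 31.9% were called up and 27.4% down. Without day 0 replicate 1 of MDCK-NBL2 the counts were 620 of 714, 551 of 699, 22 of 29 and 21 of 38 in the class direction.

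Of the genes that rose in MDCK-NBL2 and fell in MDCK-II, DAAM1, a formin that nucleates actin downstream of Wnt, stood in untreated MDCK-II at 72, 102 and 123 CPM and with TGFb at 53.7, 64.1 and 56.4 CPM. In MDCK-NBL2 it stood at 54.4 and 34.1 CPM untreated and 99.9, 86.8 and 83.7 CPM with TGFb. The treated and untreated libraries of each line did not overlap, and the lines crossed over, with MDCK-II higher before and MDCK-NBL2 higher after. The log2 change was 1.01 (SE 0.20) in MDCK-NBL2 and -0.76 (SE 0.17) in MDCK-II, a difference of 1.78 (SE 0.27) (adjusted p = 0.000214).

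PDLIM2, a PDZ-LIM protein of the actin cytoskeleton, fell in MDCK-II from 7.41, 7.72 and 7.17 CPM to 2.98, 2.7 and 2.46 CPM and rose in MDCK-NBL2 from 18.3 and 9.19 CPM to 33.6, 24.5 and 22.4 CPM (difference 2.38 (SE 0.44), adjusted p = 0.00107). PLK3, a polo-like kinase of the stress response, went from 17.1, 26.3 and 28.1 to 17.7, 13.6 and 13.3 CPM in MDCK-II, where treated replicate 1 lay just above untreated replicate 1, and from 22.4 and 14.5 to 52.4, 38.6 and 39.8 CPM in MDCK-NBL2 (difference 1.90 (SE 0.31), adjusted p = 0.00049). MMD, a membrane protein of the progestin and adipoQ receptor family, rose in MDCK-NBL2 from 41.6 and 37.1 to 147, 130.3 and 111 CPM, while its MDCK-II libraries overlapped, at 36.3, 87.8 and 75.5 CPM untreated and 31.8, 52.5 and 40.1 CPM treated. Its MDCK-II change of -0.68 (SE 0.23) was called (adjusted p = 0.0329), but with untreated MDCK-NBL2 replicate 2 put back MMD was called in MDCK-NBL2 alone.

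The same pattern held for ANO4 (an anoctamin), with a log2 change of 0.44 (SE 0.17) in MDCK-NBL2 and -1.13 (SE 0.15) in MDCK-II. FUT10, of the fucosyltransferase family, changed by 0.89 (SE 0.20) and -0.72 (SE 0.20), and ETNK2, an ethanolamine kinase, by 0.57 (SE 0.16) and -0.60 (SE 0.14). Differences of these 3 genes had adjusted p of 0.000187, 0.000757 and 0.000954, and all 3 stayed opposite with the left-out library. PLPP3, which degrades extracellular lysophosphatidic acid, differed by 2.21 (SE 0.31) (adjusted p = 0.000138), but by 1.46 with an adjusted p of 0.0632 once untreated MDCK-NBL2 replicate 2, at 30.1 CPM against 11.7 and 7.81 CPM in the others, was put back.

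Among the 38 genes that fell in MDCK-NBL2 and rose in MDCK-II were a chemokine, a cytokine receptor and a Wnt feedback gene. CCL17, a chemokine that draws T cells through CCR4, rose in MDCK-II from 11.5, 4.41 and 6.7 CPM to 71.8, 41.7 and 30.8 CPM. In MDCK-NBL2 it fell from 27.6 and 9.31 CPM to 6.33, 7.68 and 7.22 CPM. Its groups did not overlap in either line, and the untreated MDCK-NBL2 libraries differed from each other by more than the treated ones. The difference was -4.11 (SE 0.58) (adjusted p = 0.000141), and the left-out library stood at 37.9 CPM, above the other untreated ones.

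AXIN2, a scaffold of the beta-catenin destruction complex and a standard readout of Wnt signalling, rose in MDCK-II from 4.61, 3.12 and 3.35 CPM to 8.32, 8.95 and 9.38 CPM. In MDCK-NBL2 it fell from 48.8 and 24 CPM to 19.9, 14.1 and 12.9 CPM. Every MDCK-NBL2 library, treated or not, lay above every MDCK-II library. The log2 change was -1.24 (SE 0.35) in MDCK-NBL2 and 1.27 (SE 0.35) in MDCK-II (difference -2.52 (SE 0.49), adjusted p = 0.00171).

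SLC4A11, a membrane transporter of the bicarbonate transporter family, rose in MDCK-II from 4.46, 8.38 and 7.05 CPM to 15.8, 25.4 and 21.6 CPM and fell in MDCK-NBL2 from 112 and 75.3 CPM to 29.7, 34 and 33.7 CPM. TRIB2, a pseudokinase that steers proteins to degradation, rose from 25.8, 13.6 and 15.9 CPM to 49.8, 50.4 and 58.8 CPM in MDCK-II and fell from 216 and 113 CPM to 78.8, 63.6 and 72.2 CPM in MDCK-NBL2. For both genes, the lines lay far apart when untreated and closer with TGFb. Their differences were -3.17 (SE 0.33) (adjusted p = 1.05e-05) and -2.73 (SE 0.33) (adjusted p = 4.52e-05).

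RGS2, which shortens G protein signals, followed the same course, from 13, 27 and 23.5 to 39, 56.2 and 91.5 CPM in MDCK-II and from 521 and 659.5 to 211, 162 and 181 CPM in MDCK-NBL2 (difference -3.22 (SE 0.47), adjusted p = 0.000178). XK, a membrane partner of the Kell blood group protein, stood at no more than 1.45 CPM in MDCK-II and rose there by 2.49 (SE 0.38) on the log2 scale, while it fell by 1.29 (SE 0.24) in MDCK-NBL2, from 16.5 and 13.9 to 6.52, 5.97 and 6.16 CPM. SGK1, a kinase that raises sodium channel activity in the renal tubule, went from 84.5, 83.6 and 81.2 to 150.1, 148 and 163 CPM in MDCK-II and from 698 and 271 to 119.9, 77.3 and 124 CPM in MDCK-NBL2 (difference -3.07 (SE 0.44), adjusted p = 0.000151). The left-out library had 116 CPM of SGK1, at the treated level, and with it SGK1 was called in MDCK-NBL2 alone.

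CX3CL1, the membrane-bound chemokine fractalkine, rose in MDCK-II from 40.6, 39.7 and 37.4 CPM to 108, 94.2 and 89.5 CPM and fell in MDCK-NBL2 from 25.8 and 19 CPM to 19.2, 14.8 and 15.2 CPM, with the lowest untreated library at 19 CPM beside a treated one at 19.2 CPM (difference -1.78 (SE 0.21), adjusted p = 4.52e-05). FJX1, a secreted relative of the fly planar polarity kinase four-jointed, changed by -1.0 (SE 0.29) in MDCK-NBL2 and 0.84 (SE 0.25) in MDCK-II (difference -1.84 (SE 0.39), adjusted p = 0.00266). IL1RL1, the receptor of interleukin 33, rose in MDCK-II from 75, 79.9 and 71.5 CPM to 332, 315 and 342 CPM. In MDCK-NBL2 it was low, at 6.14 and 2.3 CPM untreated and 0, 0.122 and 3.01 CPM treated, so treated replicate 3 lay above untreated replicate 3. Its difference of -4.25 (SE 0.88) (adjusted p = 0.0025) was lost without untreated MDCK-NBL2 replicate 1 (-3.25, adjusted p = 0.0726), became -7.92 without treated replicate 3, and with the left-out library IL1RL1 was called in MDCK-II alone.

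**Figure D3:**
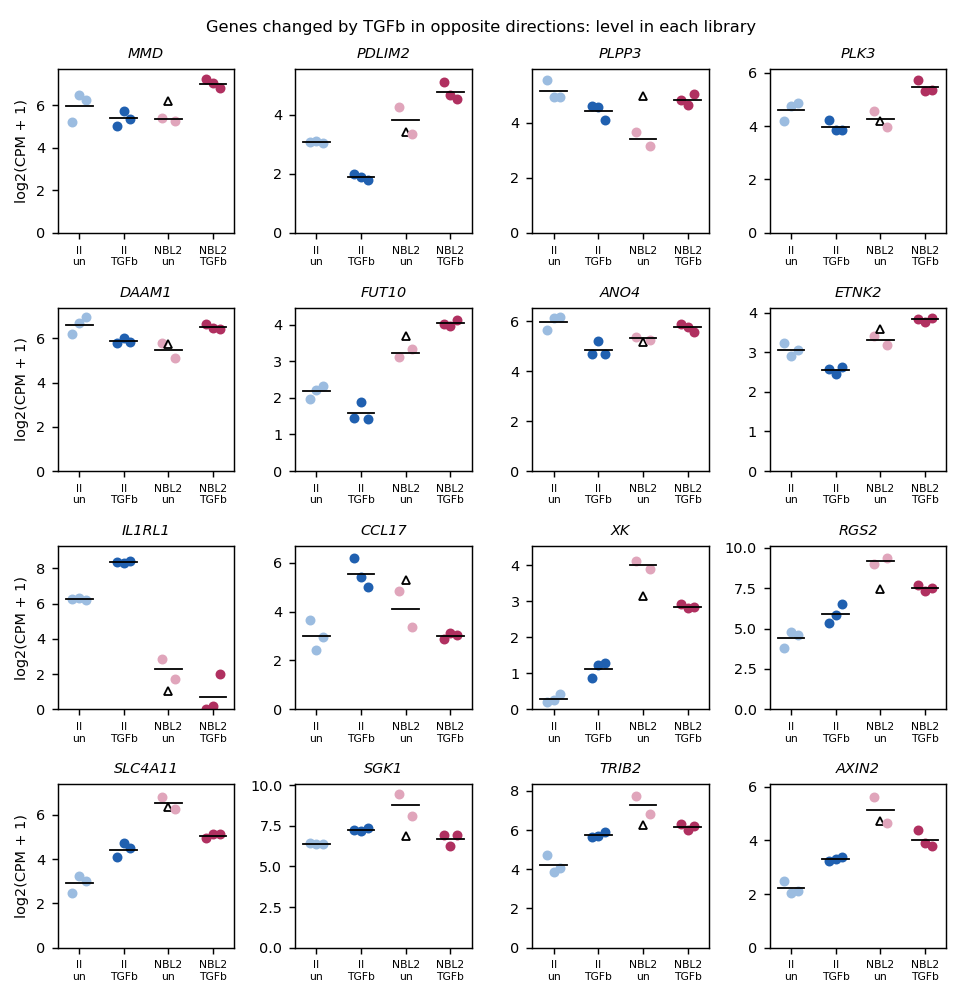
Each panel plots log2(CPM + 1) of a gene in the 12 libraries of MDCK-II (II) and MDCK-NBL2 (NBL2), untreated (un) or with TGFb; circles are libraries, lines are means, and the open triangle is untreated MDCK-NBL2 replicate 2, left out of the mean. In the upper 8 panels the MDCK-NBL2 mean rises and the MDCK-II mean falls, and in the lower 8 the reverse; AXIN2 runs from 3.12 to 9.38 CPM in MDCK-II and from 12.9 to 48.8 CPM in MDCK-NBL2.

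Among genes that rose in MDCK-NBL2 alone, the cytoskeletal gene SYNC, which encodes the muscle intermediate filament protein syncoilin, had the largest change with a narrow interval in MDCK-II. Its level was 6.04, 4.51 and 3.12 CPM in untreated MDCK-II and 4.7, 4.02 and 4.8 CPM with TGFb. In MDCK-NBL2 it went from 5.21 and 2.53 CPM to 77.3, 60.0 and 65.2 CPM. The lines were alike before treatment and only MDCK-NBL2 moved, by 4.03 (SE 0.25) on the log2 scale against -0.06 (SE 0.22) in MDCK-II (difference 4.09 (SE 0.32), adjusted p = 1.26e-06). SYNC also fell with siPRRX1, by 1.49 on the log2 scale relative to siCTR (adjusted p = 0.000147).

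WNT2, a secreted Wnt ligand, stood at 10.8, 9.94 and 10.4 CPM in untreated MDCK-II and 9.67, 8.33 and 10.1 CPM with TGFb. In MDCK-NBL2 it rose from 2.36 and 2.41 CPM to 28.2, 21 and 20.4 CPM, from below MDCK-II to above it. The difference was 3.43 (SE 0.46) (adjusted p = 0.000101). TRAM2, of the endoplasmic reticulum translocon, took the same course, from 3.01 and 5.63 CPM to 48.9, 39.4 and 38.8 CPM in MDCK-NBL2 beside 18.5, 18.4 and 17.9 CPM untreated and 17.9, 22.7 and 22.6 CPM treated in MDCK-II (difference 3.17 (SE 0.40), adjusted p = 7.24e-05). LRP12, of the LDL receptor family, rose by 3.22 (SE 0.43) in MDCK-NBL2 and changed by 0.18 (SE 0.33) in MDCK-II (adjusted p of the difference = 0.000706).

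For MRAS and DCLK1 the rise in MDCK-NBL2 brought it towards the level MDCK-II held in both states. MRAS, a small GTPase of the RAS family, rose in MDCK-NBL2 from 1.38 and 2.53 CPM to 22.6, 18.2 and 14 CPM, while MDCK-II stayed between 20 and 29.8 CPM. DCLK1, a microtubule-binding kinase, rose from 0.447 and 0.46 CPM to 4.6, 5.73 and 4.81 CPM, against 26.5 to 33.2 CPM in MDCK-II. Their differences were 3.35 (SE 0.50) (adjusted p = 0.000216) and 3.34 (SE 0.65) (adjusted p = 0.00167). HAPLN3, a protein that links hyaluronan to proteoglycans, stood under 0.7 CPM in every MDCK-II library, at 0.0407 and 0 CPM in untreated MDCK-NBL2 and at 21.5, 8.29 and 5.41 CPM with TGFb (adjusted p of the difference = 0.000313). The rise of HAPLN3 rests on few counts in the untreated cells, so its fitted difference of 7.79 depends on the prior count; it became 4.16 with the left-out library.

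GPNMB, a transmembrane glycoprotein of lysosomes and the cell surface, had the fitted difference 7.06 (SE 1.57) (adjusted p = 0.00409). It stood at 0.569 and 1.49 CPM in untreated MDCK-NBL2 and 374, 250.3 and 267 CPM with TGFb. MDCK-II had 384, 566 and 445 CPM untreated and 997, 1244 and 1336 CPM treated, groups that did not overlap although the change was not called (adjusted p = 0.208). With the left-out library, at 42.4 CPM, the difference was 2.92 and the call was lost (adjusted p = 0.272).

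The genes that fell in MDCK-NBL2 alone included a heparan sulphate enzyme, a protease inhibitor and junction genes. HS3ST1, which adds the sulphate that makes heparan sulphate bind antithrombin, fell in MDCK-NBL2 from 131 and 85.7 CPM to 13.2, 9.63 and 16.4 CPM. MDCK-II held 46.3, 87.1 and 70.0 CPM untreated and 58.7, 62.9 and 54 CPM with TGFb, so its groups overlapped. The log2 change was -3.06 (SE 0.30) against -0.21 (SE 0.25) (difference -2.85 (SE 0.39), adjusted p = 0.000112).

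PID1, an adaptor that binds the receptor LRP1, fell from 14.6 and 10.7 CPM to 1.53, 0.488 and 1.65 CPM in MDCK-NBL2, while MDCK-II stayed between 8.65 and 14.8 CPM (difference -3.46 (SE 0.47), adjusted p = 0.000105). SERPINE2, the secreted inhibitor protease nexin-1, fell from 198 and 254 CPM to 37.6, 42.2 and 39.2 CPM, while MDCK-II had 46.2, 97.2 and 94.7 CPM untreated and 81.1, 112 and 86.7 CPM treated (difference -2.74 (SE 0.36), adjusted p = 9.78e-05). PTGES, the prostaglandin E synthase, fell from 25 and 12.5 CPM to 1.15, 0.854 and 1.8 CPM and stood near or under 1 CPM throughout in MDCK-II (difference -4.37 (SE 0.78), adjusted p = 0.000858). In these 3 genes the MDCK-NBL2 groups did not overlap.

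TSPAN15, a tetraspanin that guides the protease ADAM10, fell in MDCK-NBL2 from 131 and 51.2 CPM to 12.3, 10.5 and 11 CPM, and replicate 1 of MDCK-II was high in both states, at 39.7 and 41.8 CPM (difference -3.05 (SE 0.69), adjusted p = 0.00442). TBC1D2B, an activator of Rab GTPases' hydrolysis, differed by -2.29 (SE 0.40) (adjusted p = 0.000715) and SELENBP1, a methanethiol oxidase, by -2.93 (SE 0.64) (adjusted p = 0.00358). CTDSP2, a small phosphatase, differed by -2.45 (SE 0.41) (adjusted p = 0.000563). Without untreated MDCK-NBL2 replicate 1, the differences of SELENBP1 and CTDSP2 shrank to -1.83 and -1.55 and stayed called.

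Other genes that fell in MDCK-NBL2 alone stood at or near 0 with TGFb. LRG1, a secreted leucine-rich glycoprotein, was at 21.5 and 8.96 CPM in the untreated libraries and at 0 in all 3 treated ones. Against the floor of 3 counts over the treated group, this is at least 122-fold lower, or at least 60-fold lower without untreated replicate 1. MDCK-II held at most 1.22 CPM of LRG1. SCGB1A1, the secretoglobin known from airway club cells, was at 45 and 1.95 CPM untreated, so 1 library carried most of its signal, and at 2.11, 0.61 and 0.451 CPM treated; its difference of -6.68 (SE 1.39) (adjusted p = 0.00248) was -3.10 without that library. NR4A1, an immediate early nuclear receptor, likewise stood at 272 and 3.56 CPM untreated, and its difference of -7.60 (SE 1.88) was -2.26 without untreated replicate 1 and was not called with the left-out library (adjusted p = 0.0747) or without treated MDCK-II replicate 2 (adjusted p = 0.0884).

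Genes that rose in MDCK-II alone included a Wnt and a BMP ligand. BMP4, a ligand of the BMP receptors, rose in MDCK-II from 31.9, 36.4 and 31.9 CPM to 162, 174 and 176 CPM. Untreated MDCK-NBL2 already held 116 and 136 CPM, and with TGFb it held 132, 109 and 169 CPM. The treated MDCK-II libraries thus reached or passed the MDCK-NBL2 range. The log2 change was 2.35 (SE 0.21) in MDCK-II and 0.12 (SE 0.22) in MDCK-NBL2 (difference -2.23 (SE 0.29), adjusted p = 9.56e-05).

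WNT7B, a Wnt ligand of the kidney collecting duct, rose in MDCK-II from 2.45, 7.62 and 7.17 CPM to 29.9, 33.8 and 37.8 CPM while MDCK-NBL2 held 14.3 and 20.9 CPM without and 15.5, 17.4 and 27.7 CPM with TGFb (difference -2.32 (SE 0.49), adjusted p = 0.00276). KLHL3, the ubiquitin ligase adaptor that targets WNK kinases in the distal nephron, rose in MDCK-II from 6.62, 8.48 and 5.32 CPM to 17.2, 25.8 and 25.2 CPM and stayed between 41 and 44.2 CPM in all MDCK-NBL2 libraries (difference -1.70 (SE 0.23), adjusted p = 0.000101). LRFN4, an adhesion protein, rose from 5.11, 10.9 and 11.1 CPM to 30.8, 29.6 and 30.3 CPM in MDCK-II and changed by 0.13 (SE 0.25) in MDCK-NBL2 (difference -1.61 (SE 0.34), adjusted p = 0.00309). As with BMP4, untreated MDCK-NBL2 stood above untreated MDCK-II in these 3 genes.

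ITGB8, the integrin subunit that releases active TGFb from its latent form, rose in MDCK-II from 66.9, 38.7 and 41.1 CPM to 86.5, 93.9 and 103 CPM and was at 37.3 and 43.1 CPM untreated and 24, 30.9 and 38.5 CPM treated in MDCK-NBL2 (difference -1.31 (SE 0.31), adjusted p = 0.00576). NOTUM, an enzyme that inactivates Wnt ligands, changed by 0.95 (SE 0.26) in MDCK-II and -0.50 (SE 0.28) in MDCK-NBL2 (difference -1.46 (SE 0.38), adjusted p = 0.0102), and was called opposite with the left-out library. ACKR3, a scavenging chemokine receptor, went from 0.288, 0.331 and 0.462 CPM to 19.2, 19.3 and 10.5 CPM in MDCK-II and stayed under 0.7 CPM in every MDCK-NBL2 library. Its difference (adjusted p = 0.00657) was not called without untreated MDCK-NBL2 replicate 1 (adjusted p = 0.45). PDGFRA, the PDGF receptor that marks fibroblasts, rose in MDCK-II by 3.52 (SE 0.71), with 46.5, 47.9 and 13.3 CPM in the treated libraries, and its difference of -3.98 (SE 0.99) (adjusted p = 0.00815) was lost without the same library (-1.28, adjusted p = 0.437). The 10 fibroblast markers, PDGFRA among them, summed to 0.809 to 8.13 CPM in untreated and 13.4 to 48.3 CPM in treated MDCK-II. There, 4 of them (DPT, TCF21, LUM and DCN) were at 0, and PDGFRB, PDGFRL, MFAP5, PI16 and THY1 were detected at 0.362 CPM or less; their part in the result was not tested.

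Genes that fell in MDCK-II alone included secreted regulators. NTN4, a netrin of basement membranes, fell from 51.3, 60.3 and 63 CPM to 8.32, 14.6 and 12.2 CPM in MDCK-II. MDCK-NBL2 held 43.1 and 24.1 CPM untreated and 40.7, 30.4 and 43.4 CPM treated. Only the MDCK-II groups were separate (difference 2.46 (SE 0.42), adjusted p = 0.000645). SCEL, sciellin, a precursor of the cornified envelope, fell from 29.6, 61.9 and 73.7 CPM to 9.94, 17 and 13.3 CPM in MDCK-II and was higher in MDCK-NBL2, at 227 and 106 CPM untreated and 148, 206 and 137 CPM treated (difference 1.98 (SE 0.50), adjusted p = 0.00836).

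A further 3 plotted genes of MDCK-II alone depended on single libraries. FBLN2, fibulin-2 of the matrix, rose in MDCK-II from 5.11, 1.89 and 1.39 CPM to 9.04, 14.9 and 9.16 CPM (difference -1.99 (SE 0.60), adjusted p = 0.0247). Its call was lost without untreated MDCK-II replicate 2 (adjusted p = 0.0567), treated MDCK-II replicate 2 (0.0659), treated MDCK-NBL2 replicate 1 (0.0623) or untreated MDCK-NBL2 replicate 1 (difference -1.31, adjusted p = 0.244). DENND5B, a Rab exchange factor, fell in MDCK-II from 35.3, 62.9 and 65.5 CPM to 22, 27.1 and 23 CPM (difference 1.02 (SE 0.30), adjusted p = 0.0194), and the call was lost without treated MDCK-II replicate 1 (adjusted p = 0.0505), untreated MDCK-NBL2 replicate 3 (0.0864) or treated MDCK-NBL2 replicate 1 (0.0546). INPP5A, an inositol phosphatase, fell in MDCK-II from 24.8, 23.5 and 28.5 CPM to 12.9, 11.1 and 11.5 CPM (difference 0.89 (SE 0.28), adjusted p = 0.0276), and its call was lost in 4 of the 11 fits without a single library, with an adjusted p of up to 0.114 without untreated MDCK-NBL2 replicate 3.

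Other genes of MDCK-II alone by the same rule were MAGI1, a junction scaffold, which rose (-1.25 (SE 0.34), adjusted p = 0.0134; -0.51 with 0.202 without untreated MDCK-NBL2 replicate 1), and MX2, an interferon-induced GTPase, which rose (-2.97 (SE 0.96), adjusted p = 0.0339) and stayed called in 4 of 11 fits without a single library. XPNPEP3, a mitochondrial peptidase, fell (0.71 (SE 0.22), adjusted p = 0.0241; called in 7 of those 11 fits), as did PFKFB2, a regulator of glycolysis (0.55 (SE 0.18), adjusted p = 0.0384; 4 of 11). ISG20, an interferon-induced exonuclease, fell from 20.6, 33.9 and 33.3 CPM to 12.4, 11.5 and 4.25 CPM in MDCK-II (difference 2.63 (SE 0.58), adjusted p = 0.00377). Its difference was 0.85 (adjusted p = 0.599) with the left-out library, which had 16.1 CPM beside 2.2 and 1.72 CPM in the other untreated MDCK-NBL2 libraries, and that of MX2 was then -4.53.

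Some genes moved the same way in both lines but by different amounts. MAP1B, a microtubule-binding protein of neurons, rose from 4.25, 10.3 and 10.5 CPM to 30.6, 83.4 and 73.4 CPM in MDCK-II and from 0.447 and 0.804 CPM to 746, 465 and 527 CPM in MDCK-NBL2 (difference 7.11 (SE 1.00), adjusted p = 0.000142). NPTX2, a secreted neuronal pentraxin, rose from 0.648, 1.86 and 2.08 CPM to 15.8, 26.6 and 19.7 CPM and from 0.61 and 0.575 CPM to 714, 502 and 449.6 CPM (difference 6.07 (SE 0.68), adjusted p = 2.89e-05). In both genes the treated MDCK-NBL2 libraries stood above every other library. The left-out library held 33.9 and 71.4 CPM of them, and with it neither difference was called (2.66 and 0.72, adjusted p = 0.221 and 0.824).

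CTBS, a lysosomal chitobiase, was at 0 in both untreated MDCK-NBL2 libraries used and at 7.86, 11.9 and 13.8 CPM with TGFb, at least 128-fold higher against the floor of 3 counts over the untreated group, and rose in MDCK-II from 33.9, 78.4 and 56.7 CPM to 122, 222 and 230.3 CPM. Its difference (adjusted p = 0.0198) was lost with the left-out library (adjusted p = 0.646) or without untreated MDCK-NBL2 replicate 1 (adjusted p = 0.139). RHOJ, a small GTPase, was called in MDCK-NBL2 alone. It was likewise at 0 in untreated MDCK-NBL2 and at 2.69, 0.975 and 1.5 CPM with TGFb, so it met the 10 CPM minimum through MDCK-II. There it changed by 0.58 (SE 0.51), which was not called (adjusted p = 0.425). The RHOJ difference (adjusted p = 0.0202) was lost with the same 2 changes as that of CTBS (adjusted p = 0.0574 and 0.136). FGFBP1, a secreted carrier of fibroblast growth factors, fell from 182, 159 and 132 CPM to 47.1, 6.32 and 8.38 CPM in MDCK-II and from 42.3 and 30.3 CPM to 0.192, 0.122 and 0.15 CPM in MDCK-NBL2 (difference -4.89 (SE 1.55), adjusted p = 0.0311; called in 7 of 11 fits without a single library, and with the left-out library at 0.126). SLC6A12, the betaine transporter of the kidney medulla, fell from 26.8 and 2.99 CPM to 0.192, 0 and 0.15 CPM in MDCK-NBL2, so 1 library carried most of its untreated level, and its difference of -4.82 (SE 1.51) (adjusted p = 0.0294) was -2.46 without that library (adjusted p = 0.223).

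FST encodes follistatin, which binds and blocks activins and, more weakly, BMPs. In MDCK-II it went from 71.5, 705 and 598 CPM to 25.3, 86.2 and 41.2 CPM, where untreated replicate 1 was low and lay under treated replicate 2. In MDCK-NBL2 it was at 18.5 and 23.3 CPM untreated and 31.3, 30.0 and 45.1 CPM treated. The difference was 3.93 (SE 0.93) (adjusted p = 0.00596). TGFBR3, the co-receptor betaglycan, fell in MDCK-II from 33.3, 14 and 15.2 CPM to 4.34, 7.27 and 9.05 CPM while MDCK-NBL2 held 0.244 and 0.115 CPM without and 1.53, 0.61 and 0.902 CPM with TGFb. Its difference of 3.77 (SE 1.25) had an adjusted p of 0.0381, which rose to between 0.0509 and 0.114 on leaving out any of 7 single libraries, among them untreated MDCK-II replicate 1, both untreated MDCK-NBL2 libraries used, treated MDCK-II replicates 1 and 2, and treated MDCK-NBL2 replicates 1 and 3.

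**Figure D4:**
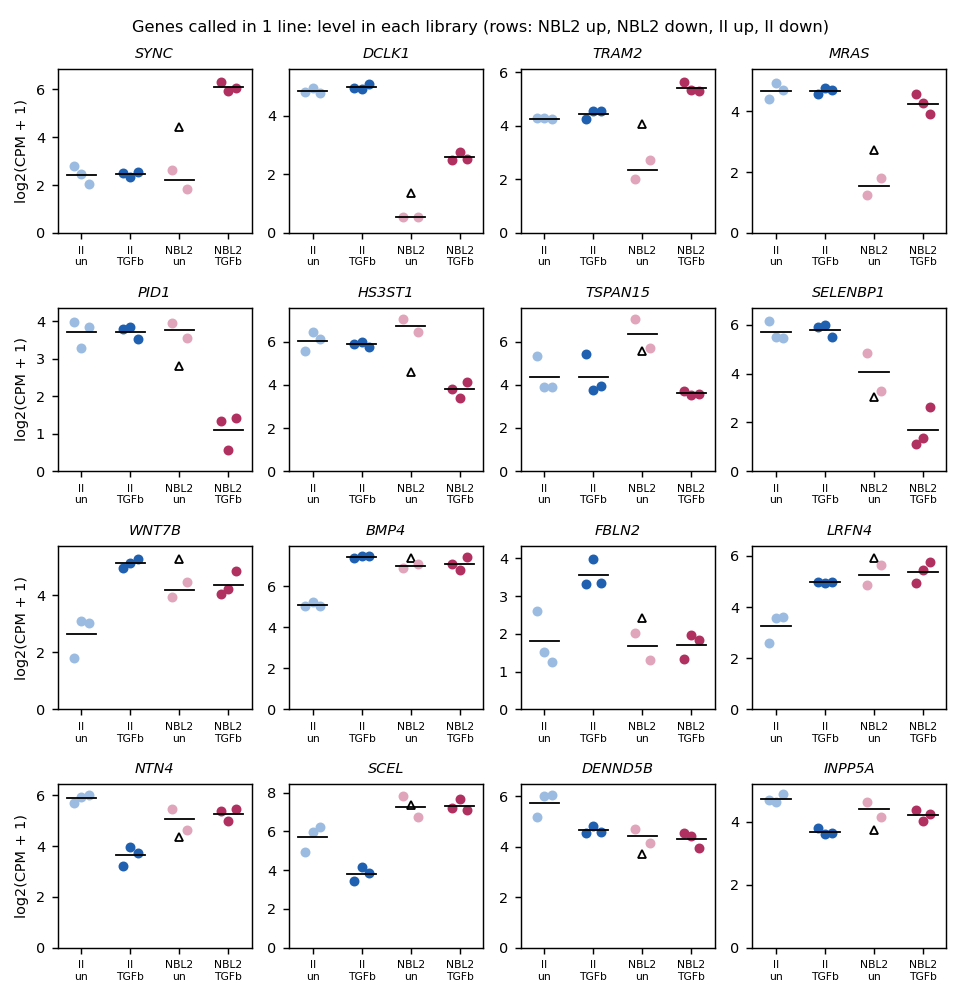
Each panel plots log2(CPM + 1) of a gene in the 12 libraries, as circles with group means, and untreated MDCK-NBL2 replicate 2 as an open triangle outside the mean; rows hold genes that rose or fell in MDCK-NBL2 alone and that rose or fell in MDCK-II alone. In the third row, BMP4 and LRFN4 start lower in untreated MDCK-II and reach the MDCK-NBL2 range with TGFb.

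Wnt ligands carry signals through Frizzled receptors to beta-catenin. Of 8 Wnt ligands tested, 1 differed upward and 2 downward, against 9.93% and 11.2% of all genes: WNT2 rose in MDCK-NBL2 alone, WNT7B in MDCK-II alone, and WNT5B rose in both, by 5.04 (SE 0.45) in MDCK-NBL2 and 7.74 (SE 0.56) in MDCK-II. WNT5B was not called without untreated MDCK-II replicate 2 (adjusted p = 0.132), and its difference of -2.69 became -5.44 with the left-out library. Of 20 receptors, 3 differed upward and 2 downward, 25% beside 21.1% of all genes. FZD4, a Frizzled receptor, rose in MDCK-NBL2 from 6.67 and 3.45 CPM to 22.2, 21.6 and 22.4 CPM and stayed between 5.79 and 7.84 CPM in MDCK-II (difference 2.15 (SE 0.40), adjusted p = 0.0012). FZD5 rose in MDCK-II alone, by 1.10 (SE 0.28) on the log2 scale, and its difference was lost without untreated MDCK-NBL2 replicate 3 (adjusted p = 0.0997).

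Of 10 Wnt inhibitors and feedback targets, 1 differed upward and 2 downward (30%, beside 21.1% of all genes). AXIN2 and NOTUM were the downward ones, and KREMEN1, a receptor for the Wnt inhibitor DKK1, the upward one, which went from 7.28 and 4.6 CPM to 20.1, 21.3 and 21.9 CPM in MDCK-NBL2 (difference 1.92 (SE 0.31), adjusted p = 0.000357). With the left-out library the counts were 1 and 2 for ligands, 2 and 1 for receptors and 1 and 2 for inhibitors.

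In the TGFb pathway itself, of 18 ligands and antagonists, 3 differed upward and 4 downward (38.9%, beside 21.1% of all genes), and 1 and 4 with the left-out library. Over the list, the median log2 changes were 0.99 in MDCK-NBL2 and 1.61 in MDCK-II, beside -0.02 and -0.03 over all genes tested (with genes at or near 0 counts set to their bound, the MDCK-II median was 1.12). TGFB2 rose in both lines, by 2.24 (SE 0.22) in MDCK-II and 0.89 (SE 0.24) in MDCK-NBL2 (difference -1.35 (SE 0.31), adjusted p = 0.00504). BMP2 rose by 1.64 (SE 0.20) and 0.54 (SE 0.22), and its difference was lost without untreated MDCK-NBL2 replicate 1 (adjusted p = 0.108). INHBA, an activin subunit, and LTBP1, which binds latent TGFb, differed upward and lost the call with the left-out library (adjusted p = 0.891 and 0.678). BMP7 differed by -0.52 (adjusted p = 0.022), and BMP4 and FST complete the list's calls. INHBA, LTBP1 and BMP7 were named after their values were seen.

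Of 11 receptors, 3 differed upward and 1 downward (36.4%, beside 21.1% of all genes), and 2 and 0 with the left-out library. BMPR1B, a type I BMP receptor, rose in MDCK-NBL2 from 15 and 25.1 CPM to 63.3, 57.5 and 79.2 CPM, and MDCK-II held 48.1, 42.3 and 44.3 CPM untreated and 42.1, 51.5 and 70.0 CPM treated (difference 1.48 (SE 0.29), adjusted p = 0.00174). TGFBR1 differed by 0.60 (SE 0.21) (adjusted p = 0.0473) and stayed called in 2 of 11 fits without a single library. TGFBR2 fell in MDCK-NBL2, by -1.06 (SE 0.20), and changed by -0.08 (SE 0.18) in MDCK-II, a difference not called without untreated MDCK-NBL2 replicate 1 (adjusted p = 0.122) or with the left-out library (adjusted p = 0.23). Of 16 SMADs and feedback genes, 4 differed, all downward (25%, beside 21.1% of all genes), and 3, all downward, with the left-out library. SMAD3, which carries the signal to DNA, fell in MDCK-NBL2 by 0.70 on the log2 scale, against a change of 0.53 in MDCK-II (difference -1.24, adjusted p = 0.0139; 0.0253 with the left-out library), and the call was lost without untreated MDCK-NBL2 replicate 1 (-0.32, adjusted p = 0.291). PMEPA1, which dampens SMAD signalling, rose in MDCK-II from 58.4, 64.8 and 82.9 CPM to 512, 559 and 541 CPM and in MDCK-NBL2 from 179 and 141 CPM to 633, 681 and 657 CPM. The treated levels of the lines were close while the untreated ones were not (difference -0.93 (SE 0.19), adjusted p = 0.00193). SMAD7, the inhibitory SMAD, differed by -0.98 (SE 0.27) (adjusted p = 0.0154), by -0.49 without untreated MDCK-NBL2 replicate 1 (adjusted p = 0.216), by -0.76 without untreated MDCK-II replicate 2 (adjusted p = 0.0623) and by -2.40 with the left-out library. The left-out library had 45.7 CPM of SMAD7 and 758 CPM of PMEPA1, above every treated MDCK-NBL2 library, and with it the difference of PMEPA1 was -2.10.

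Of 12 EMT transcription factors tested, 7 rose and 2 fell in MDCK-NBL2, and 6 rose and 1 fell in MDCK-II. In each direction, 1 difference was called (16.7% in all, beside 21.1% of all genes). SNAI2 rose in both lines, by 4.20 (SE 0.65) in MDCK-NBL2 and 1.38 (SE 0.48) in MDCK-II (difference 2.81 (SE 0.76), adjusted p = 0.0135). SNAI1 rose in MDCK-II, from 2.16, 7.66 and 5.08 CPM to 10.9, 14.8 and 10.8 CPM, and was at 38.3 and 19.6 CPM untreated and 27.6, 18 and 18.6 CPM treated in MDCK-NBL2 (difference -1.72 (SE 0.46), adjusted p = 0.013). Both calls were lost without untreated MDCK-NBL2 replicate 1 (adjusted p = 0.0696 for SNAI2 and 0.0978 for SNAI1) and with the left-out library (adjusted p = 0.505 and 0.0581).

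ZEB1 rose in both lines, by 4.86 (SE 1.12) in MDCK-NBL2 and 3.40 (SE 0.74) in MDCK-II, with no called difference (adjusted p = 0.508). PRRX1 was at 37.2, 8.9 and 5.71 CPM in treated MDCK-NBL2, so replicate 1 stood apart. That replicate is the shallowest library and the only one of another series of library numbers. In treated MDCK-II PRRX1 was at 3.8, 5.85 and 3.02 CPM. Untreated it was at 0.976 and 0 CPM in MDCK-NBL2 and 0.504, 1.03 and 1.39 CPM in MDCK-II. Its difference of 2.5 (SE 1.61) was not called (adjusted p = 0.292), and the interval allows a larger change in either line. PRRX2 rose by 1.80 (SE 0.33) in MDCK-NBL2 and 2.46 (SE 0.32) in MDCK-II (adjusted p of the difference = 0.317, but 0.017 without untreated MDCK-NBL2 replicate 3). ZEB2 was called up in both lines (adjusted p = 0.00116 in MDCK-NBL2 and 0.00559 in MDCK-II) at low levels, with at most 3.45 CPM in MDCK-NBL2 and 1.28 CPM in MDCK-II. The summed counts gave ratios of 76.3 (95% counting interval 13 to 3080) and 54.5 (9.34 to 2200), with 1 to 3 counts in each untreated group, and the MDCK-NBL2 call was lost with the left-out library (adjusted p = 0.137). TCF4 stood under 0.1 CPM in MDCK-II. SOX9 changed in MDCK-NBL2 by -1.13 (SE 0.35). The differences of SOX9, FOXC2, TCF3 and SOX4 were not called, although that of SOX9 was without untreated MDCK-NBL2 replicate 3 (adjusted p = 0.0061), that of SOX4 without untreated MDCK-NBL2 replicate 1 (1.80, adjusted p = 0.0251) and that of TCF3 without untreated MDCK-II replicate 1 (adjusted p = 0.0184). With a replicate block, SOX9 was called as well (-1.18, adjusted p = 0.039).

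Cell cycle genes had the highest share of called differences among the 32 lists. Of 42 tested, 40 had a called difference and all 40 were lower in MDCK-NBL2, against 11.2% of all genes. The median log2 change was -3.67 in MDCK-NBL2 and -1.03 in MDCK-II, and 41 and 33 of them fell. Summed over the list, untreated MDCK-II libraries held 3629, 6117 and 6102 CPM and treated ones 2395, 2402 and 3030.3 CPM. MDCK-NBL2 held 3344 and 7433 CPM untreated and 424, 582 and 788 CPM with TGFb. The left-out library stood at 987 CPM, close to the treated libraries, and with it put back 5 genes had a called difference. Leaving out each other library in turn gave 33 to 42.

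CCNB2, a mitotic cyclin, fell in MDCK-NBL2 from 24.6 and 79.8 CPM to 0.192, 0.854 and 1.95 CPM and in MDCK-II from 36, 54.6 and 54 CPM to 18, 16.3 and 25 CPM (difference -4.32 (SE 0.67), adjusted p = 0.000297). BUB1B, of the spindle checkpoint, changed by -4.42 (SE 0.39) and -0.95 (SE 0.29) (difference -3.48 (SE 0.49), adjusted p = 0.000141), and TPX2, a spindle assembly factor, by -3.77 (SE 0.31) and -1.10 (SE 0.26) (difference -2.67 (SE 0.40), adjusted p = 0.000214). These 3 stayed called with the left-out library. MCM7, of the replicative helicase, differed by -2.01 (SE 0.28) (adjusted p = 0.000143), and with that library by -1.58 (adjusted p = 0.0571).

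Contractile, integrin and matrix protease genes had most of their called differences upward, and few of these stayed called with the left-out library. Of 26 contractile and cytoskeletal genes, 8 differed upward and 2 downward (38.5%, beside 21.1% of all genes). With that library the counts were 0 and 2, and without untreated MDCK-II replicate 2 the total was 6. PALLD, an actin bundler, rose in MDCK-NBL2 from 23.2 and 38.5 CPM to 1137, 1336 and 1099.5 CPM and in MDCK-II from 30.9, 41.1 and 41 CPM to 174, 208 and 292 CPM. The left-out library had 566 CPM of PALLD, and with it the difference of 2.71 (SE 0.49) became -0.07. S100A4, a calcium-binding protein often used as a mesenchymal marker, went the other way: it fell in MDCK-NBL2 from 64.1 and 23 CPM to 6.52, 4.63 and 6.01 CPM and changed by -0.64 (SE 0.29) in MDCK-II (difference -2.32 (SE 0.47), adjusted p = 0.00213; -1.39 without untreated MDCK-NBL2 replicate 1).

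Of 15 integrins 5 differed upward and 2 downward, of 40 matrix proteases, inhibitors and crosslinkers 12 and 5 (10 in all without treated MDCK-NBL2 replicate 1), and 1 of 20 collagens differed, downward. The shares were 46.7%, 42.5% and 5%, beside 21.1% of all genes. With the left-out library the counts became 0 and 1 for integrins, 1 and 5 for proteases and 0 and 1 for collagens. The collagen medians were 3.35 in MDCK-NBL2 and 1.15 in MDCK-II, and 18 and 10 of the 20 rose, so a difference that was not called does not show equal responses. COL12A1, a fibril-associated collagen, rose by 4.94 (SE 0.51) in MDCK-NBL2 and 6.86 (SE 0.49) in MDCK-II (difference -1.92 (SE 0.58), adjusted p = 0.0229), with adjusted p of 0.0518, 0.0511 and 0.0733 without untreated MDCK-II replicate 2 or 3 or untreated MDCK-NBL2 replicate 3, and its difference was -4.59 with the left-out library. Of 28 matrix glycoproteins and proteoglycans, 3 differed upward and 4 downward (25%, beside 21.1% of all genes), and 1 and 4 with the left-out library. TNXB, tenascin-X, rose in MDCK-II from 23.5, 26.5 and 22.5 CPM to 113, 141 and 126 CPM and less in MDCK-NBL2, from 80.2 and 47.5 CPM to 79.4, 114 and 126 CPM with overlap (difference -1.65 (SE 0.32), adjusted p = 0.00156; -2.51 with the left-out library). FBLN1, fibulin-1 of basement membranes, fell in MDCK-NBL2 from 48.8 and 37 CPM to 14.4, 17.4 and 18.3 CPM and changed by 0.05 (SE 0.16) in MDCK-II (difference -1.41 (SE 0.24), adjusted p = 0.000614).

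Of 35 epithelial junction genes, 2 differed upward and 4 downward (17.1%, beside 21.1% of all genes), and of 29 epithelial regulators and keratins 4 and 5 (31%). With the left-out library the counts were 0 and 2, and 1 and 2. The junction total was 3 without treated MDCK-II replicate 1 and reached 9 over the other single omissions, and the total for regulators and keratins ran from 7 to 11. EPCAM, an adhesion protein of epithelia, fell in MDCK-NBL2 from 665 and 536 CPM to 219.6, 231 and 263 CPM and stayed between 342 and 493 CPM in MDCK-II (difference -1.29 (SE 0.30), adjusted p = 0.00522). TJP3, the tight junction scaffold ZO-3, fell from 91 and 57.8 CPM to 18.4, 23.6 and 17.6 CPM in MDCK-NBL2 and was at 69.2, 29.6 and 26.4 CPM untreated and 82.7, 71.2 and 69 CPM treated in MDCK-II (difference -2.73 (SE 0.50), adjusted p = 0.00106). The splicing factor ESRP2, which maintains epithelial isoforms, fell by 0.80 (SE 0.13) in MDCK-NBL2 and changed by 0.13 (SE 0.12) in MDCK-II (difference -0.92 (SE 0.17), adjusted p = 0.00124).

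FGFR2, a growth factor receptor with an epithelial isoform, fell in MDCK-NBL2 from 52 and 68 CPM to 19.2, 28.6 and 28.3 CPM and changed by 0.20 (SE 0.21) in MDCK-II (difference -1.42 (SE 0.32), adjusted p = 0.00409). Of 7 kidney epithelial identity markers, 6 fell in MDCK-NBL2 and 3 in MDCK-II, and 1 difference was called, that of EPCAM (14.3%, beside 21.1% of all genes).

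Of 31 cytokine, chemokine and inflammation genes, 6 differed upward and 6 downward (38.7%, beside 21.1% of all genes), and 0 and 5 with the left-out library. Of 27 interferon response genes, 2 differed upward and 5 downward (25.9%), and 0 and 7 with that library. Interferon genes varied between libraries of 1 group: they summed to 2744 CPM in untreated MDCK-II replicate 1 beside 1231 and 1475 CPM, and to 3712 CPM in the left-out library beside 1504 and 1094 CPM. Without untreated MDCK-NBL2 replicate 1 the interferon count was 2 in all, and over the other single omissions it reached 17. Of 16 mucin and secretory genes, 0 differed upward and 5 downward (31.2%, beside 21.1% of all genes), and 0 and 3 with the left-out library. Among the 5 were LRG1, SCGB1A1 and CHST4. CHST4, a sulphotransferase of mucin glycans, fell by 8.50 (SE 0.88) in MDCK-NBL2 and 1.91 (SE 0.47) in MDCK-II (difference -6.59 (SE 1.11)). Without treated MDCK-NBL2 replicate 3, the only treated MDCK-NBL2 library above 0, the difference was -11.18, a fitted value that depends on the prior count. ALDH1L2, a mitochondrial folate enzyme and an ATF4 target, rose in MDCK-NBL2 alone from 33.9 and 9.19 CPM to 99.4, 92.3 and 63.1 CPM, and MDCK-II stayed between 106 and 134 CPM (difference 1.76 (SE 0.47), adjusted p = 0.0122; 3.04 without untreated MDCK-NBL2 replicate 1, 1.16 without replicate 3, and not called in the 4 groups alone, with an adjusted p of 0.0573).

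**Figure D5:**
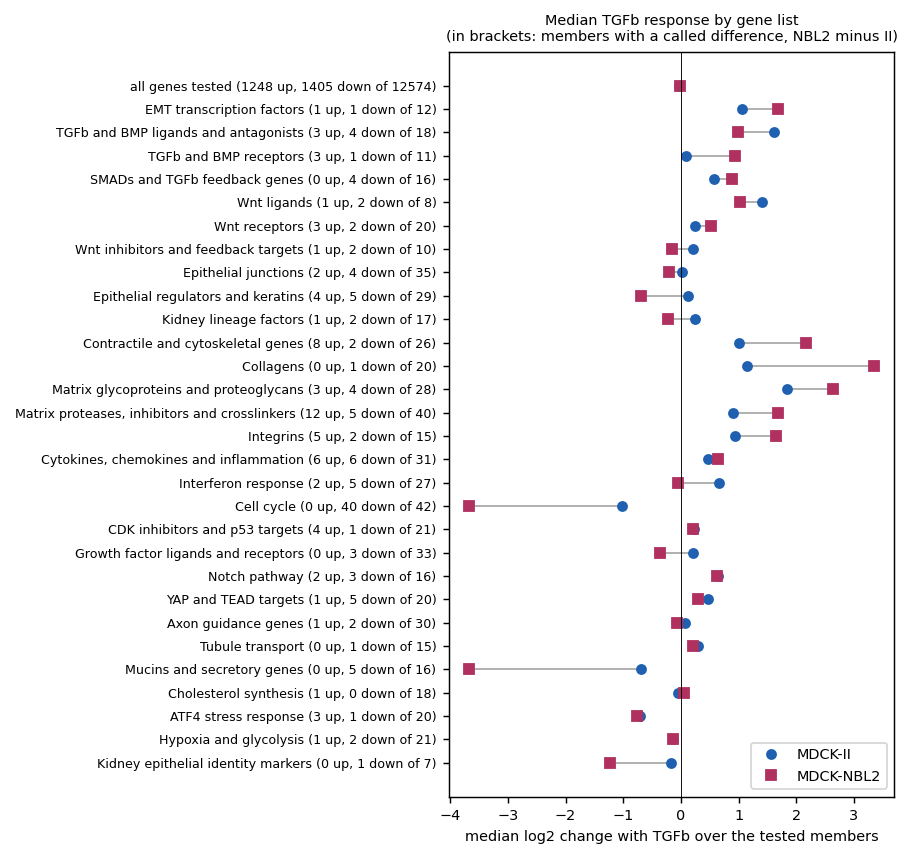
Each row is a gene list with at least 7 tested members, with the median log2 change with TGFb in MDCK-II (circle) and MDCK-NBL2 (square), and in brackets the members with a called difference. Cell cycle genes sit at -1.03 and -3.67 with 40 of 42 called, mucin and secretory genes at -0.69 and -3.67 with 5 of 16 called, and all genes tested at -0.03 and -0.02.

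Among the other lists, called differences upward and downward were 4 and 1 of 21 CDK inhibitors and p53 targets, 2 and 3 of 16 Notch genes, 1 and 5 of 20 YAP and TEAD targets, and 0 and 3 of 33 growth factor ligands and receptors. The shares were 23.8%, 31.2%, 30% and 9.09%, beside 21.1% of all genes. In the fit with the left-out library, where 5.7% of all genes were called, the counts were 2 and 0, 0 and 1, 0 and 3, and 0 and 2. HES4, a Notch target, rose in both lines, by 3.49 (SE 0.38) in MDCK-II and 1.32 (SE 0.34) in MDCK-NBL2 (difference -2.17 (SE 0.51), adjusted p = 0.00538). Called differences upward and downward were 1 and 2 of 30 axon guidance genes, 1 and 2 of 17 kidney lineage factors, 3 and 1 of 20 ATF4 targets, 1 and 2 of 21 hypoxia and glycolysis genes, 0 and 1 of 15 tubule transport genes, and 1 and 0 of 18 cholesterol synthesis genes. Shares in these last 6 lists were below the 21.1% of all genes, and in lists this small a single library moved the counts. Putting back the left-out library gave, in the same order, 1 and 1, 0 and 1, 1 and 0, 0 and 0, 0 and 0, and 0 and 0. Endothelial markers differed in 1 of 4, fibroblast markers in 1 of 2 and leukocyte markers in 0 of 2 tested.

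The knockdown libraries, which share the fit's estimate of spread, gave 1 more contrast. With siPRRX1 against siCTR in TGFb-treated MDCK-NBL2 cells, 248 genes rose (1.97%) and 407 fell (3.24%). Of the 714 genes that rose with TGFb in MDCK-NBL2 alone, 64 fell with siPRRX1 (8.96%) and 10 rose. Of the 454 that rose in both lines with a called difference, 62 fell (13.7%) and 7 rose, and of all 3409 genes that rose with TGFb in MDCK-NBL2, 237 fell (6.95%). Of the 38 opposite genes that fell in MDCK-NBL2, 5 rose with siPRRX1 (13.2%) and 1 fell. Those that rose included FJX1 and IL1RL1 (4.89, adjusted p = 0.000385), which was low in the MDCK-NBL2 libraries described above. Among the 6 named genes with the largest rises in MDCK-NBL2 alone and a narrow MDCK-II interval, SYNC fell. DCLK1, TRAM2, MRAS, WNT2 and LRP12 were not called with siPRRX1 (adjusted p from 0.0539 to 0.981). Genes that rose in MDCK-II alone fell in 4 of 110 and rose in 6.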

How the data were processed

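The 24 mRNA libraries of dog MDCK cells were analysed from the raw counts per gene that the authors deposited, all whole numbers. The submitters' processing notes name FastQC, the aligner STAR 2.5.3a, the quantifier RSEM 1.3.0 and the build CanFam 3.1, without their order or settings. How reads shared by near-identical genes were counted is not given there.

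Counts were tested with edgeR 4.0.16 (R 4.3.3, limma 3.58.1): TMM scaling, genes kept by filterByExpr (minimum count 10, minimum total 15), 1 mean per group over 23 libraries in 8 groups, quasi-likelihood tests, a prior count of 0.125 and Benjamini-Hochberg adjustment over 12574 genes. The fit had 15 residual degrees of freedom and a common biological coefficient of variation of 17.7%. A gene belongs to a class only if its difference was called. Intervals are 95%. On simulated counts for this difference, the test recovered 40.8% of 2-fold and 81.4% of 4-fold changes, and called 8 of 12015 unchanged genes. Each simulated gene had 1 mean over all groups, with the fitted spread, and 98 genes were changed 2-fold and 97 genes 4-fold in treated MDCK-NBL2 alone. The simulation held no other response and no outlying library, so these shares are not error rates for the data.

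Named genes needed a symbol, a called difference and at least 10 CPM in 1 of the 4 groups. They were the 8 largest opposite differences per direction; per line and direction 6 genes with the other line's interval within 2-fold and 3 of the rest; 3 same-direction genes each way; up to 4 per list; and all tested EMT transcription factors. The text describes part of the genes so chosen; some results are not reported here. The members and the 32 gene lists were chosen with earlier results of these data known. The siCTR and siPRRX1 comparisons and the list counts and fold bounds without single libraries were chosen after seeing the data. Alternatives were DESeq2 1.42.0, its size factors, no filter, a replicate block, the series of the library number as a term, a fit of the 4 groups alone, a 2-fold minimum and each library left out. Promoter motifs were not analysed here.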

Additional observations from a re-analysis of the deposited data

Results flagged for a closer look

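The genes below differed in their TGFb response between the lines by the interaction test (edgeR adjusted p below 0.05), and stayed called without each single library and with untreated MDCK-NBL2 replicate 2 put back: 60 of 136 named genes with a called difference. Values are the log2 change in MDCK-NBL2 minus that in MDCK-II. Opposite in direction and higher in MDCK-NBL2, MMD (2.39), PDLIM2 (2.38), PLK3 (1.90), DAAM1 (1.78), FUT10 (1.61), ANO4 (1.57) and ETNK2 (1.17) differed. Opposite in direction and lower in MDCK-NBL2, CCL17 (-4.11), XK (-3.78), RGS2 (-3.22), SLC4A11 (-3.17), SGK1 (-3.07), TRIB2 (-2.73), AXIN2 (-2.52), CX3CL1 (-1.78) and FJX1 (-1.84) differed. Of genes that rose in MDCK-NBL2 alone, SYNC (4.09), DCLK1 (3.34), TRAM2 (3.17), MRAS (3.35), WNT2 (3.43), LRP12 (3.04), HAPLN3 (7.79), BMPR1B (1.48), FZD4 (2.15), KREMEN1 (1.92) and ALDH1L2 (1.76) differed. Of genes that fell in MDCK-NBL2 alone, PID1 (-3.46), HS3ST1 (-2.85), TSPAN15 (-3.05), SELENBP1 (-2.93), TBC1D2B (-2.29), CTDSP2 (-2.45), LRG1 (-9.79), SCGB1A1 (-6.68), TJP3 (-2.73), EPCAM (-1.29), ESRP2 (-0.92), S100A4 (-2.32), FBLN1 (-1.41), SERPINE2 (-2.74), PTGES (-4.37) and FGFR2 (-1.42) differed. Of genes that rose in MDCK-II alone, WNT7B (-2.32), BMP4 (-2.23), LRFN4 (-1.61), KLHL3 (-1.70), NOTUM (-1.46) and ITGB8 (-1.31) differed. Of genes that fell in MDCK-II alone, NTN4 (2.46), SCEL (1.98) and FST (3.93) differed. Of genes that moved the same way in both lines, CHST4 (-6.59), TGFB2 (-1.35), PMEPA1 (-0.93), TNXB (-1.65), BUB1B (-3.48), TPX2 (-2.67), CCNB2 (-4.32) and HES4 (-2.17) differed. The fitted values of LRG1 and HAPLN3, which were at or near 0 in a group, depend on the prior count. The siCTR, siPRRX1 and day 0 libraries were not compared in these contrasts, but took part in the shared estimate of spread, the choice of genes tested and the scaling. In a fit of the 4 groups alone 59 of the 60 stayed called, and ALDH1L2 did not (adjusted p = 0.0573). With untreated MDCK-NBL2 replicate 2 put back, 9 of the 60 changed class: MMD, SGK1, CHST4, BUB1B, TPX2 and CCNB2 were then called in MDCK-NBL2 alone, PMEPA1 and TNXB in MDCK-II alone, and NOTUM in opposite directions.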

How the results depend on the processing

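With untreated MDCK-NBL2 replicate 2 put back, the difference was called for 711 genes, MDCK-NBL2 alone for 448 and the same direction for 57, and 82 of 136 named genes stayed called. The differences of PALLD (-0.068), TPM1 (-0.12), PLOD1 (-0.17), ITGB3 (-0.17) and ANKRD1 (-1.79) then changed sign; the cause was not tested. A fit of the 4 groups alone, which has fewer samples, kept 98 of the 136; its counts were 1152 for the difference, 2348 for the MDCK-II response, 676 for MDCK-NBL2 alone, 58 for MDCK-II alone, 28 opposite and 385 in the same direction. With a 2-fold minimum they were 1298 for the difference, 3370.0 for the MDCK-NBL2 response, 1379 for the MDCK-II response, 778 for MDCK-NBL2 alone, 90.0 for MDCK-II alone, 13 opposite and 312 in the same direction. Leaving out each library in turn gave 2080.0 to 3171 differences, 6225 to 7251 MDCK-NBL2 responses, 2587 to 4550.0 MDCK-II responses, 1056 to 1612 genes for MDCK-NBL2 alone, 114 to 256 for MDCK-II alone, 41 to 129 opposite and 603 to 1240.0 in the same direction. DESeq2 called 2922 differences, its size factors in edgeR 2653, no filter 2142 and the library number series as a term 2602, and the 7 counts stayed within 1.5 times the main ones under these 4 alternatives. The MDCK-NBL2-higher share of calls was 47% and ran from 40.6% to 50.3%.

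Same-numbered libraries correlated in their deviations at 0.42, 0.25 and 0.29 in MDCK-II, at 0.12, 0.04 and 0.28 in MDCK-NBL2 and at 0.06, 0.06 and 0.14 between the treated lines, so the numbers were not taken to pair the samples across the 4 groups, although each MDCK-II pair was above 0.1. Without the left-out library both same-numbered MDCK-NBL2 pairs were at 0.27 and both crossed ones at -0.27, values that 2 libraries a group make equal in size. Every MDCK-II library correlated best with its own number, and untreated MDCK-NBL2 replicate 2 did not. The pair at 0.04 holds that library, which the main fit leaves out, so these values do not show that the libraries were unpaired. A replicate block gave 3014 differences, kept 135 of the 136 named calls, called SOX9 (-1.18, adjusted p = 0.039) and moved no count by over 1.5 times. In the 4 groups alone the block gave 1761 differences, 909 genes for MDCK-NBL2 alone and 120.0 for MDCK-II alone. It kept 117 of the 136 named calls there, against 1152 differences and 98 named calls without a block. Depth limits genes under about 1 CPM, most in treated MDCK-NBL2.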
